A study of Rattus norvegicus with 60 samples.

Results

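Voltage-gated sodium channels, voltage-gated calcium channels, HCN channels and TRP channels were examined in the CA1 area of the rat hippocampus. The members were the rows of the deposited RNA table whose gene symbol begins with Scn and a digit, Cacna, Cacnb or Cacng, with Trpc, Trpm or Trpv and a digit, or with Hcn and a digit. Of 66 such rows, 44 reached at least 1 FPKM (fragments per kilobase of transcript and per library total, a level scaled for length and depth) in at least 5 libraries and were kept. They were 44 of the 13153 genes tested, from 22865 rows in the table. Of the 44, 43 encode channel subunits: 8 of sodium channels, 21 of calcium channels, 3 of HCN channels and 11 of TRP channels. The other member, Trpc4ap, has a matching symbol but encodes a protein that binds a TRPC channel, and it forms no pore.

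All animals were Sprague-Dawley rats aged 90 to 120 d. The RNA groups were threat 24 h (6 libraries), threat 1 h (8), place 24 h (5), place 1 h (6) and naive (9), where the hours count from contextual threat recognition training. The labels give the naive RNA libraries no time, and they do not describe what the place and threat animals met during training. DNA captured with a methyl-CpG binding domain (MBD), which enriches methylated DNA, was sequenced from 3 threat, 4 place and 3 naive samples at 24 h and at 1 h, each time with 3 input samples that were not captured. No label says whether replicates were separate animals, and p-values therefore reflect only how far these samples scatter, part of which may be technical. CA1 tissue is a mixture of cells, and in such bulk samples fewer cells of a type and less RNA per cell cannot be told apart.

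Voltage-gated sodium channels open on depolarisation and carry the rising phase of the action potential. Voltage-gated calcium channels turn depolarisation into calcium entry, which drives transmitter release and signals to the nucleus. HCN channels open on hyperpolarisation and, in the distal dendrites of CA1 pyramidal cells, dampen the summation of synaptic input. TRP channels are cation channels gated by a wide range of chemical and physical signals, many of them downstream of phospholipase C.

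The RNA libraries differed little in depth, between 0.838 and 1.22 times their median as read from the steps between low FPKM values, and each pair of libraries correlated at 0.968 or more across genes. Several libraries stood apart by marker genes of neighbouring tissue. Threat 1 h replicates 4 and 7 had mean log2 levels of 7.17 and 6.45 over 4 choroid plexus markers, against at most 3.49 in any other library. Place 1 h replicate 3 had the highest level of CA2 and CA3 markers (4.97), and threat 1 h replicate 3 the highest level of dentate granule cell markers (4.16). The CA1 pyramidal markers were present in every library, with mean log2 levels of 3.80 to 4.97. Calls between threat 24 h and threat 1 h that ended without threat 1 h replicates 4 and 7, or without these 4 libraries, are given with those values, as are the differences of Trpm3 and Trpm7 at 1 h.

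The promoters of 5 members are shown, for 2 members with CpG-rich and 3 with CpG-poor sequence before their start. They are the RefSeq sequences of build GRCr8, from 250 bases before to 50 bases after the annotated start, on the coding strand, with each CG dinucleotide in capitals. Cacnb3 (chr7:131666301-131666600, plus strand, 44 CpG) and Trpm7 (chr3:134588064-134588363, minus strand, 38 CpG) had lower RNA at 24 h than at 1 h after threat training. Cacng2 (chr7:111577708-111578007, minus strand, 7 CpG), which was also lower, and Scn2b (chr8:54322133-54322432, plus strand, 2 CpG), which was higher, have few CpG. Cacng5 (chr10:93336618-93336917, minus strand, 2 CpG) is shown because its start was among those with the most captured DNA.
Cacnb3: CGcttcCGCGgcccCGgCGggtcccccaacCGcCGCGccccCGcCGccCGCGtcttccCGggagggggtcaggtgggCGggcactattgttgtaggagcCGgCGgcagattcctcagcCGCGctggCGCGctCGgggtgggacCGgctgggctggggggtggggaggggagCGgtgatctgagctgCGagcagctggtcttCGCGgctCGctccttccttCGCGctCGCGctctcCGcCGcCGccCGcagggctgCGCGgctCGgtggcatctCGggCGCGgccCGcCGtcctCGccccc
Trpm7: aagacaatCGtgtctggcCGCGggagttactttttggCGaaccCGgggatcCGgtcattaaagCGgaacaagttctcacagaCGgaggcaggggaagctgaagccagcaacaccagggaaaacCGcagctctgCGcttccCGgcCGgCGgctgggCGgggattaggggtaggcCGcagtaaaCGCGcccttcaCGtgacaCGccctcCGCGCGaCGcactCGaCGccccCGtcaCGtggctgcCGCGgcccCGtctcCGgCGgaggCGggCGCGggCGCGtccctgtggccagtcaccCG
Cacng2: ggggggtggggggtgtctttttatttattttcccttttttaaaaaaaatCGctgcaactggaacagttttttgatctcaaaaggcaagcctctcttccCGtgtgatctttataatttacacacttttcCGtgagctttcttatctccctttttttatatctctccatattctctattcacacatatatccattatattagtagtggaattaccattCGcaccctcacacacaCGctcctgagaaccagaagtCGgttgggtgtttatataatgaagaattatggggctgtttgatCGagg
Scn2b: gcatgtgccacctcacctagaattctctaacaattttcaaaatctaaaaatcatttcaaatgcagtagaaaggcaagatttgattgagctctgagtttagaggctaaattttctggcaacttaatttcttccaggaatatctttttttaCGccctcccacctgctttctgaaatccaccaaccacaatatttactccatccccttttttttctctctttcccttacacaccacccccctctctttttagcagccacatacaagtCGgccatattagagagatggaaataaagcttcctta
Cacng5: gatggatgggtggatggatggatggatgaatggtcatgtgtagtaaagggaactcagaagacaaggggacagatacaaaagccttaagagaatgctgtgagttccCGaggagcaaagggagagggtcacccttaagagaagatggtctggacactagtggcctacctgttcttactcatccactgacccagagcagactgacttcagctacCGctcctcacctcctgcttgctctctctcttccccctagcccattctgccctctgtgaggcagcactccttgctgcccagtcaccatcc

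A RefSeq promoter of the same length was available for 30 of the 44 members. Among those not matched were Hcn3, Trpc1, Cacna1g, Cacna1h, Cacna1i, Cacnb1, Cacnb4, Cacng4, Cacng7, Scn1a and Scn3b. The 30 held 2 to 66 CpG with a median of 22.5, against a median of 21 over 9649 tested genes. GGGCGG, the GC box, was found on either strand in 15 of 30 member promoters (50%), against 63.8% of the 9649. TGACG, one arm of the cyclic AMP response element, was in 8 (26.7%, against 32.3%), and the whole element TGACGTCA was in 0 (against 3.26%). TATAAA was in 1 member promoter, that of Cacng2 (3.33%, against 6.3%), and CACGTG, the E box of bHLH factors, in 1, that of Trpm7 (3.33%, against 9.74%). TGACGTCA contains TGACG, so these searches overlap. A match of letters is a description and no evidence of binding.

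Sodium channel beta subunits are single-pass proteins that shape the gating and surface placement of the pore. Mean levels over the 34 libraries were 83.8 FPKM for Scn3b, 58.4 for Scn2b and 9.5 for Scn4b.

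The pore-forming sodium channel alpha subunits were lower than Scn3b and Scn2b. Scn2a1, which encodes Nav1.2, averaged 23.1 FPKM and Scn8a, which encodes Nav1.6, 19.3, both being channels of the axon initial segment of excitatory neurons. Scn1a (Nav1.1), prominent in inhibitory neurons, averaged 6.99 FPKM and Scn3a (Nav1.3), best known from the immature brain, 5.6. Below the filter were the rows of Scn9a, with a mean of 0.421 FPKM, and Scn4a, the skeletal muscle channel, with 0.276.

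Among the calcium channel pore subunits, Cacna1a of the P/Q type averaged 12.6 FPKM, Cacna1e of the R type 9.05 and Cacna1b of the N type 7.38. These are the types that serve transmitter release at central synapses. The low-voltage-activated T-type genes lay in the same range, with 9.35 FPKM for Cacna1h, 8.88 for Cacna1i and 7.89 for Cacna1g. The L-type genes Cacna1d (3.58) and Cacna1c (2.48) were the lowest pore subunits of the family.

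Cacna1h had 5.46 to 12.4 FPKM (median 9.72) in threat 24 h libraries, 6.89 to 15.5 (median 9.38) in threat 1 h libraries and 8.29 to 13.4 (median 9.64) in place 1 h libraries. In place 24 h libraries it had 9.19, 9.7, 12, 4.67 and 10.6 FPKM, and in naive libraries 4.55 to 14.6 (median 8.38). Within groups it was thus among the more variable members.

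Among the auxiliary calcium channel subunits, the intracellular beta subunits, which carry the pore to the membrane, averaged 43.6 FPKM for Cacnb3, 29.4 for Cacnb1, 12.2 for Cacnb4 and 9.76 for Cacnb2. The alpha2delta subunits, of which those from Cacna2d1 and Cacna2d2 bind gabapentin, averaged 32 FPKM for Cacna2d3, 15.4 for Cacna2d1 and 4.08 for Cacna2d2. The gamma genes averaged 48 FPKM for Cacng7, 45.5 for Cacng8, 30.7 for Cacng3, 21.6 for Cacng2, 11.1 for Cacng4 and 2.03 for Cacng5. In neurons the proteins of these 6 gamma genes are best known as TARPs, partners of AMPA receptors, so that the symbol does not describe their main role.

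Cacng7 had 45.4 to 54.9 FPKM (median 46.6) in threat 24 h libraries, 40.2 to 50.7 (median 46.8) in threat 1 h libraries and 42.0 to 50.5 (median 48.4) in place 1 h libraries. Its place 24 h libraries had 51.0, 54.3, 49.6, 53.4 and 48.7 FPKM, and its naive libraries 44.8 to 54.3 (median 47.5). Levels of Cacng7 overlapped between all groups.
Cacna2d3 had 30.5 to 43.0 FPKM (median 31.8) in threat 24 h libraries, 25.2 to 35.6 (median 29.7) in threat 1 h libraries and 25.8 to 44.6 (median 31.8) in place 1 h libraries. It had 33.7, 27.3, 28.8, 33.4 and 31.4 FPKM in place 24 h libraries and 22.2 to 42.8 (median 31.3) in naive libraries. Its groups overlapped as well.

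Hcn2 averaged 25.8 FPKM and Hcn3 3.21, while Hcn4, the main isoform of the cardiac pacemaker, stayed below the filter with 0.389. Hcn2 had 20.9 to 26.7 FPKM (median 23.9) in threat 24 h libraries, 21.9 to 28.7 (median 26.1) in threat 1 h libraries and 25.6 to 28.8 (median 26.6) in place 1 h libraries. Its place 24 h libraries had 27.2, 25, 21.5, 28.6 and 24.6 FPKM, and its naive libraries 23.3 to 30.9 (median 26.0). The groups overlapped.

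TRP channel genes were less abundant. Trpc4, a receptor-operated channel of pyramidal cells, averaged 9.89 FPKM, Trpc1 6.72, Trpc5 4.27, Trpc6 3.66 and Trpc2, a pheromone transduction channel of rodents, 1.02. Trpm7, a channel fused to a kinase and involved in magnesium balance, averaged 5.04 FPKM. Trpm2, which opens on oxidative stress, averaged 3.48, Trpm3, a heat- and steroid-sensitive channel also found in choroid plexus, 3.14 and Trpm4, a calcium-activated cation channel, 0.891. Trpv2 averaged 4.06 FPKM and Trpc4ap 27.1.

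Trpv2 had 3.42 to 4.62 FPKM (median 3.99) in threat 24 h libraries, 2.75 to 5.13 (median 4.5) in threat 1 h libraries and 3.19 to 4.53 (median 4.29) in place 1 h libraries. Place 24 h libraries had 3.93, 3.48, 3.42, 4.49 and 3.39 FPKM of Trpv2, and naive libraries 3.21 to 4.96 (median 4.26). Trpc4ap was the steadiest member, with 26.9 to 29.0 FPKM (median 28.1) in threat 24 h libraries, 25.6 to 28.0 (median 26.7) in threat 1 h libraries and 25.8 to 29.4 (median 27.1) in place 1 h libraries. In place 24 h libraries Trpc4ap had 29.1, 27.1, 27.3, 26.4 and 28.5 FPKM, and in naive libraries 24.1 to 27.9 (median 26.9). Neither gene separated the groups.

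The filter mattered for few genes. Just inside it were Trpm4, at or above 1 FPKM in 12 libraries, Trpc2 in 19 and Cacng5 in 33, while the other 41 members reached it in all 34. Trpm4 reached 1 FPKM in 0 threat 24 h, 5 threat 1 h, 0 place 24 h, 3 place 1 h and 4 naive libraries, so it entered the test through the 1 h and naive groups. Just outside were Trpv6, above 1 FPKM in 3 libraries with a mean of 0.685, and Trpv4, in 2 libraries with a mean of 0.178. The other 20 rows below the filter, among them Trpv1 (0.380), Trpc7 (0.264) and Cacng6 (0.229), reached 1 FPKM in 0 libraries.

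**Figure D1:**
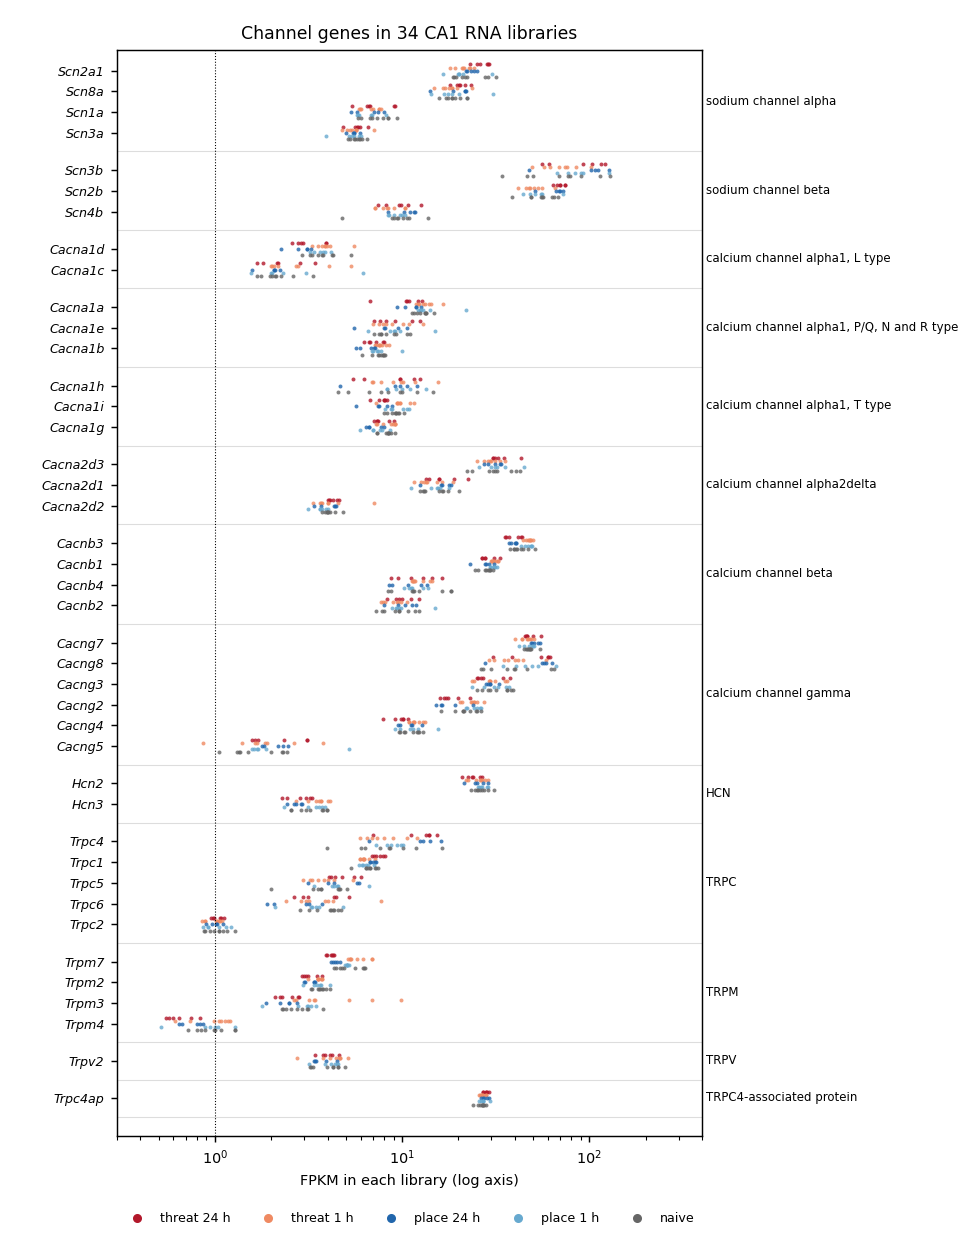
RNA level of channel genes in FPKM on a log axis, ordered by subfamily, with 1 dot for each of the 34 libraries coloured by group. Levels run from means such as 83.8 FPKM for Scn3b to 0.891 FPKM for Trpm4, and the dots of the 5 groups overlap for most members.

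The time after training was compared next, first within the threat groups. In threat 24 h libraries Trpm7, Cacnb3, Cacng2, Trpm3, Cacna1i and other calcium channel genes were lower than in threat 1 h libraries, and genes including Scn2b, Trpc1, Trpc4 and Scn2a1 were higher. Of the 44 members, 15 passed the threshold (limma on log2(FPKM + 1), Benjamini-Hochberg adjusted p under 0.05 over 13153 genes), 5 higher and 10 lower, where 12.5% of all genes were higher and 16.8% lower. That is 34.1% of the members, beside 29.3% of all genes tested, so the members' share was near that of all genes. The median log2 difference was -0.01 over the members and -0.01 over all genes.

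The calls are given by role, as counts with no test between roles. Of the 8 sodium channel genes, 2 rose and 0 fell. Of the 21 calcium channel genes, 0 rose and 6 fell, namely the beta subunit Cacnb3, the TARPs Cacng2 and Cacng4, and the pore genes Cacna1i, Cacna1a and Cacna1d. Among the HCN genes, Hcn3 fell. Of the 11 TRP genes, Trpc1 and Trpc4 rose while Trpm7, Trpm3 and Trpm4 fell. Trpm4 met the filter only through other groups, with 0 threat 24 h libraries at 1 FPKM or more, against 5 threat 1 h libraries, so that its fall is favoured by the filter. Trpc4ap was not called.

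Trpm7 had 3.94 to 4.31 FPKM (median 4.17) in the 6 threat 24 h libraries, against 5.14 to 6.94 (median 5.52) in the 8 threat 1 h libraries. The 2 groups did not overlap. Trpm7 fell by 0.41 on the log2(FPKM + 1) scale (SE 0.067, limma adjusted p 4.7e-05), the lowest p among the members. Without threat 1 h replicates 4 and 7, the libraries rich in choroid plexus transcripts and the highest for Trpm7 (6.94 and 6.90 FPKM), the difference was -0.33 (limma adjusted p 0.00056).

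Cacnb3 had 35.4 to 43.8 FPKM (median 39.6) in threat 24 h libraries, against 44 to 50.1 (median 47.7) in threat 1 h libraries, again without overlap. It fell by 0.26 on the log2 scale (SE 0.055, limma adjusted p 0.00067). Cacng4 was the third member whose groups did not overlap, with 7.87 to 10.7 FPKM (median 10.02) in threat 24 h libraries, against 10.9 to 13.3 (median 11.6) in threat 1 h libraries, and fell by 0.27 (SE 0.084, limma adjusted p 0.015). Groups did not overlap for 10.9% of all genes in this comparison and for 3 of the 44 members. Without threat 24 h replicate 5, the lowest, the difference of Cacng4 was -0.22 and no longer passed (limma adjusted p 0.0564).

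Scn2b had 63.7 to 74.5 FPKM (median 69.9) in threat 24 h libraries, against 41.7 to 65.5 (median 49.4) in threat 1 h libraries. It rose by 0.45 on the log2 scale (SE 0.11, limma adjusted p 0.0019), with 1 threat 1 h library above the lowest threat 24 h library. Trpc1 had 6.93 to 8.08 FPKM (median 7.44) in threat 24 h libraries, against 5.93 to 7.19 (median 6.21) in threat 1 h libraries, and rose by 0.21 (SE 0.050, limma adjusted p 0.0021).

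Cacng2, the TARP also called stargazin, had 16.0 to 23.0 FPKM (median 17.5) in threat 24 h libraries, against 20.4 to 27.3 (median 23.9) in threat 1 h libraries. It fell by 0.35 on the log2 scale (SE 0.094, limma adjusted p 0.0056). Cacna1i had 6.72 to 8.34 FPKM (median 8.02) in threat 24 h libraries, against 7.25 to 11.5 (median 9.66) in threat 1 h libraries, and fell by 0.28 (SE 0.079, limma adjusted p 0.0084). The ranges of both genes overlapped between the groups.

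Trpm3 had 2.09 to 2.82 FPKM (median 2.44) in threat 24 h libraries, against 2.65 to 9.84 (median 3.40) in threat 1 h libraries. It fell by 0.61 on the log2 scale (SE 0.16, limma adjusted p 0.0061), and its 2 highest values, 9.84 and 6.90 FPKM, lay in threat 1 h replicates 4 and 7. Without these 2 libraries the difference was -0.33 (limma adjusted p 0.0317), and without threat 1 h replicate 3 as well and place 1 h replicate 3 it was -0.23 and did not pass (limma adjusted p 0.0983). Trpv4, a channel of the choroid plexus below the filter, had 2.15 and 1.55 FPKM in the same 2 libraries, against at most 0.155 in any other. Trpm4 had 0.547 to 0.837 FPKM (median 0.618) in threat 24 h libraries, against 0.615 to 1.21 (median 1.07) in threat 1 h libraries, and fell by 0.27 (SE 0.079, limma adjusted p 0.011), with an adjusted p of 0.013 when no filter was applied.

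The remaining called members lay nearer to the threshold. Cacna1a had 6.73 to 12.7 FPKM (median 10.7) in threat 24 h libraries, against 11.8 to 16.5 (median 13.1) in threat 1 h libraries, and fell by 0.33 (SE 0.11, limma adjusted p 0.021). Without threat 24 h replicate 4, whose 6.73 FPKM was the lowest value, the difference was -0.22 (limma adjusted p 0.0984). Scn2a1 had 22.9 to 29.0 FPKM (median 27.1) in threat 24 h libraries, against 17.9 to 24.2 (median 21.2) in threat 1 h libraries, and rose by 0.31 (SE 0.11, limma adjusted p 0.025). Its adjusted p moved to 0.0542, 0.0555 and 0.0559 without threat 1 h replicate 7, threat 24 h replicate 1 and threat 24 h replicate 6, and to 0.0621 without threat 1 h replicates 4 and 7.

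Cacna1d had 2.57 to 3.94 FPKM (median 2.92) in threat 24 h libraries, against 3.32 to 5.54 (median 3.87) in threat 1 h libraries, with a difference of -0.26 (SE 0.093, limma adjusted p 0.034). Hcn3 had 2.28 to 3.29 FPKM (median 2.97) in threat 24 h libraries, against 2.70 to 4.14 (median 3.63) in threat 1 h libraries, with a difference of -0.24 (SE 0.089, limma adjusted p 0.041). Trpc4 had 7.03 to 15.4 FPKM (median 13.6) in threat 24 h libraries, against 5.96 to 12 (median 7.67) in threat 1 h libraries, with a difference of 0.53 (SE 0.20, limma adjusted p 0.046). The calls of these 3 genes depended on single libraries: leaving out 1 library at a time ended the call of Cacna1d in 5 of 14 fits, of Hcn3 in 9 and of Trpc4 in 11. Without threat 1 h replicates 4 and 7 the difference was -0.23 for Hcn3 (adjusted p 0.0899) and 0.44 for Trpc4 (adjusted p 0.139), and without threat 1 h replicate 3 it was -0.20 for Cacna1d (adjusted p 0.0779). Without all 3 and place 1 h replicate 3 it was -0.21 for Cacna1d (adjusted p 0.115) and 0.53 for Trpc4 (adjusted p 0.0872).

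Within the place groups, Cacnb3, Cacng2 and Cacna1i fell between the times and 0 members rose. These 3 of 44 members (6.82%) stand beside 13.3% of all genes called, 6.61% higher and 6.64% lower, and the median log2 difference was -0.06 over the members, against 0.01 over all genes. Cacnb3 had 40.6, 40.1, 40.5, 37.4 and 38.1 FPKM in place 24 h libraries, against 43.1 to 49.5 (median 47.9) in place 1 h libraries. It fell by 0.25 (SE 0.062, limma adjusted p 0.0070), and the groups did not overlap.

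Cacng2 had 19.2, 16.3, 15.2, 23.8 and 16.1 FPKM in place 24 h libraries, against 22 to 26.3 (median 24.7) in place 1 h libraries. It fell by 0.42 (SE 0.10, limma adjusted p 0.0080), with replicate 4 alone inside the place 1 h range. Cacna1i had 8.87, 8.35, 7.52, 5.7 and 7.43 FPKM in place 24 h libraries, against 8.12 to 10.9 (median 9.48) in place 1 h libraries. It fell by 0.31 (SE 0.089, limma adjusted p 0.021), and the call was lost without place 1 h replicate 1 (-0.28, adjusted p 0.0534) and without place 24 h replicate 4 (-0.22, adjusted p 0.0825).

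Trpm7 also separated the place groups, with 4.39, 4.51, 4.18, 4.65 and 4.30 FPKM in place 24 h libraries, against 4.97 to 5.17 (median 5.07) in place 1 h libraries. Its difference of -0.17 did not pass (SE 0.075, limma adjusted p 0.14). Groups did not overlap for 8.43% of all genes in this comparison and for 2 members, Trpm7 and Cacnb3.

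Scn2b had 72.3, 66.3, 69.9, 51.0 and 69.2 FPKM in place 24 h libraries, against 44.1 to 72.7 (median 53.3) in place 1 h libraries, a difference of 0.27 (SE 0.12, limma adjusted p 0.13). The 15 members called in the threat comparison all had the same sign in the place comparison, which shares no library with it, and 3 of the 15 were called there. Agreement of sign was not counted over all genes, so it cannot be read as particular to the members. The difference between these 2 time courses was tested directly as an interaction. It was called by limma for 0 members and for 0% of all genes, with 1 member, Trpm7, at an unadjusted p under 0.05 (-0.24, SE 0.10, adjusted p 1.0), as were 2.74% of all genes. Without threat 1 h replicates 4 and 7 the interaction of Trpm7 was -0.16 (SE 0.093, unadjusted p 0.0864). For 32 of the 44 members the 95% interval of the interaction from the limma SE lay within 0.5 log2 units of 0, and for the other 12 the data leave a larger difference possible.

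**Figure D2:**
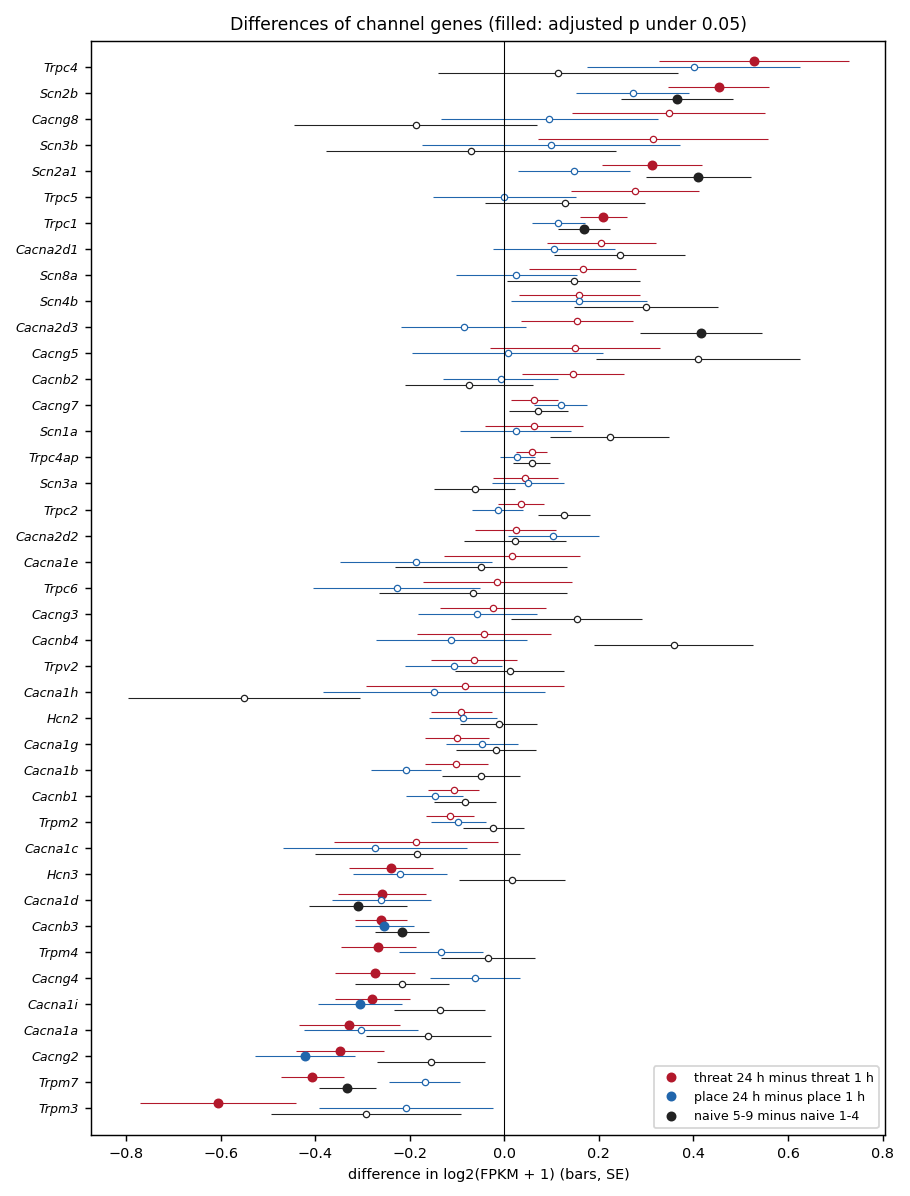
Log2 difference of channel genes for threat 24 h minus threat 1 h, place 24 h minus place 1 h, and naive replicates 5 to 9 minus 1 to 4, on the log2(FPKM + 1) scale, with bars of 1 SE and filled symbols where the limma adjusted p was under 0.05. Members called in the threat comparison, such as Trpm7 (-0.41) and Scn2b (0.45), lie on the same side of 0 in the place comparison.

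The naive libraries were split in the same direction. Naive replicates 1 to 4 and 5 to 9 sit in separate blocks of columns in the deposited table, which the labels do not describe as a batch. Between replicates 5 to 9 and replicates 1 to 4, 8 of the 44 members (18.2%) passed limma's threshold, beside 19% of all genes. Trpm7 averaged 4.62 FPKM in naive replicates 5 to 9 and 6.08 in naive replicates 1 to 4 (-0.33). Cacnb3 averaged 39.8 FPKM in naive replicates 5 to 9 and 46.5 in naive replicates 1 to 4 (-0.22), and Cacna1d 3.34 in replicates 5 to 9 and 4.4 in replicates 1 to 4 (-0.31). These 3 were lower in naive replicates 5 to 9.

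Scn2a1 averaged 26.4 FPKM in naive replicates 5 to 9 and 19.4 in replicates 1 to 4 (0.41), and Cacna2d3 averaged 36.4 in replicates 5 to 9 and 27 in replicates 1 to 4 (0.42). For Scn2b the means were 61.7 FPKM in replicates 5 to 9 and 47.9 in replicates 1 to 4 (0.37), and for Trpc1 7.06 in replicates 5 to 9 and 6.18 in replicates 1 to 4 (0.17). These 4 were higher in naive replicates 5 to 9. Of the 15 members called between threat 24 h and threat 1 h, 14 had the same sign in this split of untrained libraries and 7 were called in it. No such count was made over all genes. The part of whatever separates the naive blocks in the differences between times was not tested. Levels of some marker lists are set beside the times, without a test. For endothelial and mural cells the ranges barely overlapped between the times after threat training. Their mean log2 level over 7 genes was 2.88 to 3.15 in threat 24 h libraries, against 3.15 to 3.5 in threat 1 h libraries. In place 24 h libraries it was 3.06 to 3.29, inside the range of place 1 h libraries (2.99 to 3.38). The other marker lists are not described by time here. The part of these markers in the results was not tested.

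**Figure D3:**
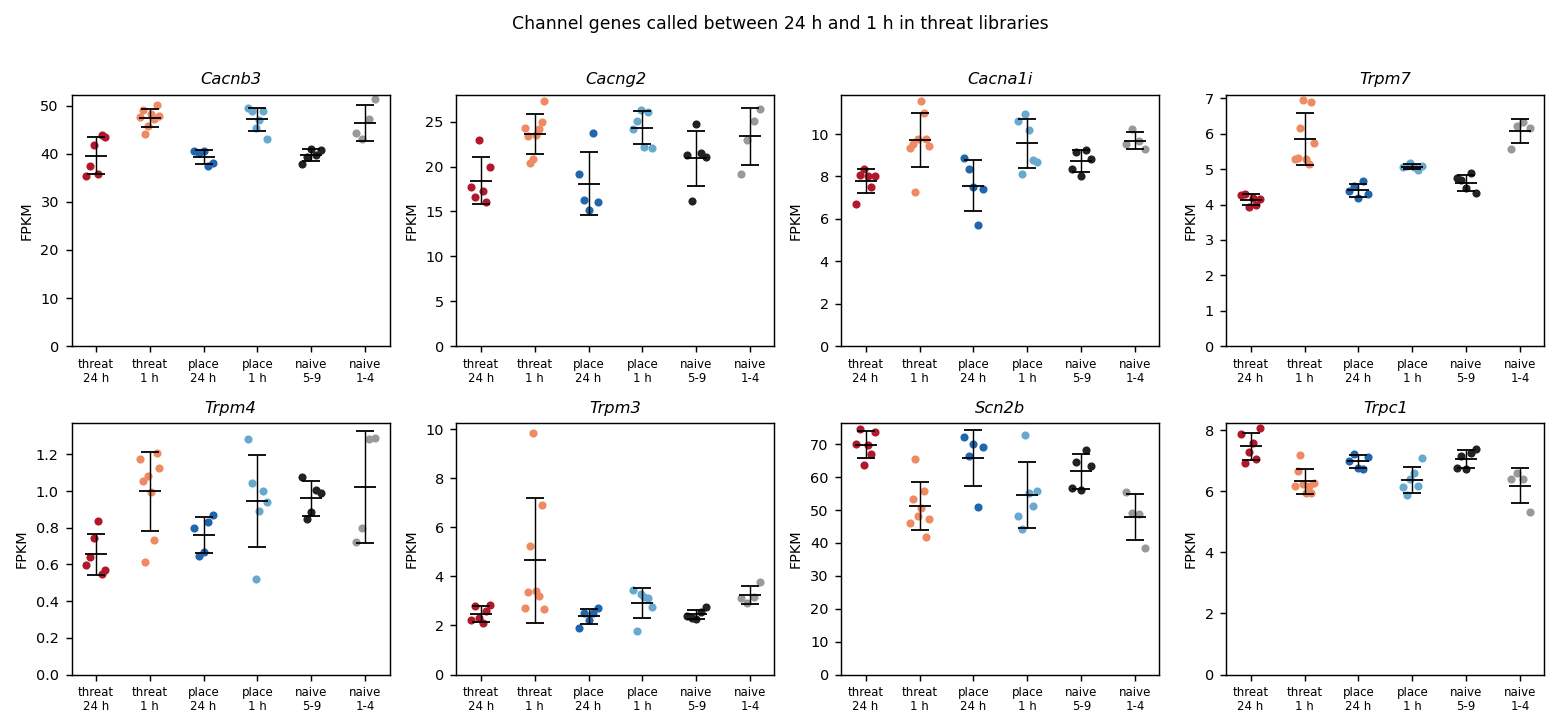
FPKM of 8 called members in every library, grouped as threat 24 h, threat 1 h, place 24 h, place 1 h, naive replicates 5 to 9 and naive replicates 1 to 4, with the mean and SD of each group. Trpm7 and Cacnb3 are lower at 24 h than at 1 h after threat training and lower in naive replicates 5 to 9 than in naive replicates 1 to 4.

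Trained libraries were then set against the naive libraries, which all 4 such comparisons share, so that their results are not independent of each other. At 24 h after threat training Trpm7 and Trpm4 were lower than in naive libraries and Scn2b was higher. These 3 of 44 members (6.82%) stand beside 10.1% of all genes called, 4.32% higher and 5.77% lower, and the median log2 difference was 0.0004 over the members and 0.01 over all genes. Trpm7 had 3.94 to 4.31 FPKM (median 4.17) in threat 24 h libraries, against 4.32 to 6.33 (median 4.89) in naive libraries, a difference of -0.28 (SE 0.066, limma adjusted p 0.0071). The groups did not overlap, as for 1.6% of all genes, although the highest threat 24 h library and the lowest naive library were close.

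Trpm4 had 0.547 to 0.837 FPKM (median 0.618) in threat 24 h libraries, against 0.721 to 1.29 (median 0.988) in naive libraries, a difference of -0.26 (SE 0.077, limma adjusted p 0.028). It reached 1 FPKM in 0 threat 24 h libraries, against 4 naive libraries, so the filter favoured this direction, and its adjusted p without a filter was 0.034. Scn2b had 63.7 to 74.5 FPKM (median 69.9) in threat 24 h libraries, against 38.6 to 68.1 (median 56.1) in naive libraries, a difference of 0.34 (SE 0.10, limma adjusted p 0.034). No call held with naive replicates 5 to 9 alone, where the differences were -0.13 for Trpm7 (adjusted p 0.397), -0.25 for Trpm4 (0.233) and 0.18 for Scn2b (0.564), and 0 members were called. For Trpm4 the size of the difference hardly moved. With naive replicates 1 to 4 alone 14 members were called, 6 higher and 8 lower. The share of all genes called with 1 naive block alone is not given here. Counts with 1 block alone, here and below, therefore cannot be read as particular to the members.

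At 24 h after place training 0 of 44 members were called by limma against naive libraries, beside 5.05% of all genes, while 12 had an unadjusted p under 0.05, as did 21.9% of all genes. With naive replicates 1 to 4 alone 8 members were called, and with naive replicates 5 to 9 alone 0. The lowest p was that of Cacna1i (-0.25, SE 0.082, adjusted p 0.066), with 8.03 to 10.2 FPKM (median 9.24) in naive libraries. Next came Cacna1d, with 3.26, 2.78, 3.12, 2.27 and 3.09 FPKM in place 24 h libraries, against 2.91 to 5.31 (median 3.71) in naive libraries (-0.29, SE 0.096, adjusted p 0.068), and Trpm7 (-0.20, SE 0.069, adjusted p 0.079). Side by side, the differences from naive of Trpm7, Trpm4 and Scn2b were -0.20, -0.17 and 0.25 in place 24 h libraries, where they did not pass.

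At 1 h after threat training 0 members were called by limma against naive libraries, beside 0.928% of all genes, and 4 had an unadjusted p under 0.05, as did 16.1% of all genes. With naive replicates 5 to 9 alone 8 members were called, and with naive replicates 1 to 4 alone 0. Trpm3 came first (0.48, SE 0.15, adjusted p 0.10), with 2.28 to 3.78 FPKM (median 2.75) in naive libraries, followed by Cacnb3 (0.15, SE 0.050, adjusted p 0.12). Without threat 1 h replicates 4 and 7, the libraries rich in choroid plexus markers, the difference of Trpm3 was 0.21 (SE 0.10, adjusted p 0.424). Cacnb1 had 29.96 to 32.5 FPKM (median 30.9) in threat 1 h libraries, against 24.5 to 30.8 (median 28.8) in naive libraries (0.14, SE 0.048, adjusted p 0.15). These groups overlapped narrowly, and the difference did not pass.

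At 1 h after place training 0 members were called by limma against naive libraries, beside 0.129% of all genes, and 3 had an unadjusted p under 0.05, as did 9.76% of all genes. With naive replicates 5 to 9 alone 1 member was called. The 3 were Cacnb3 (0.14, adjusted p 0.35), with 37.9 to 51.4 FPKM (median 41.0) in naive libraries, Cacnb1 (0.13, adjusted p 0.40), with 29.4 to 31.9 FPKM (median 31.0) in place 1 h libraries, and Cacna1g (-0.15, adjusted p 0.42). Cacna1g had 5.97 to 8.62 FPKM (median 7.34) in place 1 h libraries, against 7.31 to 9.16 (median 8.41) in naive libraries. The ranges of all 3 overlapped.

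Threat and place training were compared at each time. At 24 h 0 members and 0% of all genes were called by limma, and 0 members had an unadjusted p under 0.05, beside 2.9% of all genes. The member with the lowest p, Trpc6, had 2.64 to 5.22 FPKM (median 3.72) in threat 24 h libraries, against 2.06, 3.07, 3.72, 3.18 and 1.90 in place 24 h libraries (0.33, SE 0.18, adjusted p 1.0). Cacna1g had 7.07 to 9.09 FPKM (median 7.42) in threat 24 h libraries, against 7.69, 6.62, 6.63, 6.38 and 8.05 in place 24 h libraries (0.13, SE 0.076), and Cacng4 differed by -0.16 (SE 0.095), with 11.3, 11.1, 9.56, 12.7 and 9.73 FPKM in place 24 h libraries. These values overlapped between the trainings. Estimates over the 44 members ran between -0.16 and 0.33 log2 units, and 40 of the 44 intervals lay within 0.5 log2 units of 0.

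At 1 h 0 members and 0% of all genes were called by limma between threat and place training, with 3 members at an unadjusted p under 0.05, beside 4.26% of all genes. Trpm3 differed by 0.44 (SE 0.16, adjusted p 1.0), with 2.65 to 9.84 FPKM (median 3.40) in threat 1 h libraries, against 1.78 to 3.45 (median 3.13) in place 1 h libraries. Its 2 highest values lay in threat 1 h replicates 4 and 7, the libraries rich in choroid plexus markers, and without them the difference was 0.17 (SE 0.11, unadjusted p 0.145). Cacna1g had 7.22 to 9.18 FPKM (median 8.85) in threat 1 h libraries, against 5.97 to 8.62 (median 7.34) in place 1 h libraries (0.18, SE 0.067, adjusted p 1.0). Trpm7 differed by 0.17 (SE 0.067, adjusted p 1.0), with 5.14 to 6.94 FPKM (median 5.52) in threat 1 h libraries, against 4.97 to 5.17 (median 5.07) in place 1 h libraries, and without the same 2 libraries by 0.093 (SE 0.064, unadjusted p 0.159). For 40 of the 44 members the interval lay within 0.5 log2 units of 0.

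A list of 38 tested genes whose proteins bind, traffic or regulate these channels, chosen with earlier results of these data known, was described in the same comparisons. Between threat 24 h and threat 1 h, 6 rose and 6 fell (31.6%, beside 29.3% of all genes). Calm2, a calmodulin gene, rose by 0.38 and Cnih3, an AMPA receptor auxiliary protein, by 0.57, while Pkd1, a polycystin that pairs with TRP-related channels, fell by 0.42 and Rimbp2, which links calcium channels to the release site, by 0.40. Between place 24 h and place 1 h, 3 rose and 4 fell (18.4%), with 0.28 for Calm2 and 0.51 for the sodium channel binding protein Fgf11, against -0.35 for Pkd1 and -0.42 for Rimbp2.

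Against naive libraries, 1 of the 38 rose and 1 fell at 24 h after threat training (Calm2 0.22, Pkd1 -0.28), and 0 rose and 2 fell at 24 h after place training (Pkd1 -0.29 and Sptbn4, a spectrin of the axon initial segment, -0.17). At 1 h after place training 0 rose and Gem, of the RGK family of calcium channel blockers, fell by 0.42 (limma adjusted p 0.036). At 1 h after threat training 0 rose and 0 fell.

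Members also varied together among libraries of the same group. After the group means were removed, 946 pairs of members were correlated over the 34 libraries. Of these, 276 pairs (166 positive and 110 negative) had a permutation p under 0.05 after Benjamini-Hochberg adjustment. Pairs of other genes were not correlated in this way, so the count cannot be read as particular to channel genes. The naive blocks were not centred separately for it. The pairs described were chosen after the values were seen, and libraries of a group share tissue dissection and library preparation as far as the labels tell. In 4 pairs r was above 0.9, and all 4 lie among Cacng8, Scn3b, Trpc4 and Cacna1h.

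Cacng8, the TARP of hippocampal AMPA receptors, and Scn3b had r = 0.960 and rho = 0.954 (permutation adjusted p 0.00023 and 0.00029), and r = 0.951 without the 2 libraries farthest out. Scn3b and Trpc4 had r = 0.933 and rho = 0.884, Cacng8 and Cacna1h r = 0.913 and rho = 0.913, and Cacng8 and Trpc4 r = 0.912 and rho = 0.918, each with the same permutation adjusted p, which rest on the smallest p that 100000 permutations can give (1e-05). Without the 2 farthest libraries these r were 0.901, 0.889 and 0.882. Within single groups the r of Cacng8 and Scn3b was 0.963 in threat 24 h, 0.942 in threat 1 h, 0.986 in place 1 h and 0.959 in naive libraries, and it was 0.964 with the naive blocks centred separately.

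The range behind this relation was wide. Scn3b ran between 34 and 129 FPKM over the 34 libraries, and its SD within groups, 0.478 log2 units, was the highest of the members, followed by 0.410 for Cacna1h, 0.401 for Cacng8 and 0.394 for Trpc4, against 0.054 for Trpc4ap. Cacng2 ran the other way: its r was -0.808 with Trpc4 (rho -0.687, permutation adjusted p 0.00023 and 0.00097) and -0.702 with Cacng8 (rho -0.605, permutation adjusted p 0.0015 and 0.0064). Without the 2 farthest libraries these r were -0.717 and -0.592. In place 1 h libraries alone the r of Cacng2 and Cacng8 was -0.106, against -0.763 in naive libraries.

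The same members moved with markers of neighbouring fields. Over 528 pairs of a member and a marker list, 55 had a permutation adjusted p under 0.05. No such count was made for other genes either. Scn3b and Cacng8 correlated with the CA2 and CA3 markers at r = 0.691 and r = 0.673 (rho 0.808 and 0.746, permutation adjusted p 0.0013 in each case). With the mean of 6 CA1 pyramidal markers they had r = 0.330 and r = 0.188 (rho 0.288 and 0.224, permutation adjusted p 0.22 and 0.55). Correlations of members with single CA1 markers were not computed, and the mean can hide them. Fibcd1, of the CA1 list, had 11.9 and 15.8 FPKM in naive replicates 1 and 6, against 1.54 and 3.56 in naive replicates 4 and 7. Cacng8 had 65.0 and 62.7 FPKM in the former, against 27.2 and 26.3 in the latter. These are the highest and lowest naive values of Cacng8, so 1 marker in these libraries is an example and no test. In place 1 h replicate 3, by contrast, Cacng8 was the highest of its group (66.3) and Fibcd1 the lowest (5.18). Cacna1d, Cacna1c and Trpc6 followed the dentate granule markers, at r = 0.806, 0.760 and 0.728 (rho 0.720, 0.846 and 0.638). Scn4b followed the oligodendrocyte markers (r = 0.691, rho 0.722), and Scn2b ran against the endothelial and mural markers (r = -0.715, rho -0.651), each with a permutation adjusted p of 0.0013 or 0.0018 for r. Trpc6 is itself a known dentate granule marker and, being a member, was left out of that list, which held 3 genes. Threat 1 h replicate 3, the highest library for that list, was also the highest of its group for Cacna1d (5.54 FPKM) and Trpc6 (7.67). For marker lists, r without the farthest libraries is not given here. The part of dissection or cell composition in the differences between groups was not tested.

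**Figure D4:**
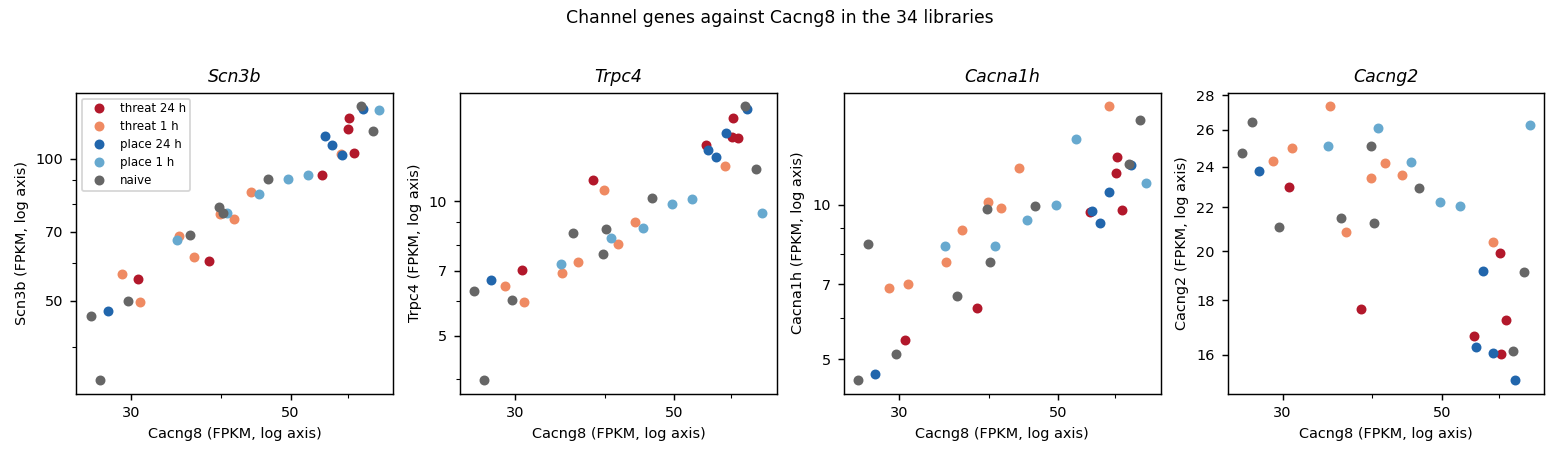
FPKM of Scn3b, Trpc4, Cacna1h and Cacng2 in each of the 34 libraries against FPKM of Cacng8, on log axes, coloured by group. Scn3b, Trpc4 and Cacna1h are high where Cacng8 is high (r after removal of group means 0.960, 0.912 and 0.913), and Cacng2 is low there (-0.702).

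MBD capture was examined in 500-nt bins across the members' gene bodies, with rn5 positions. Reads in bins amounted to 42.2 to 59.5 M reads per sample at 24 h and 31.4 to 39.9 M at 1 h. Of 12395 bins that lie in members, 199 at 24 h and 1195 at 1 h held at least 1 RPKM (reads scaled for bin length and library total) on average in captured samples and at least 2 times the input level, out of 85335 and 350378 such bins in the genome. The median tested bin held 41 reads at 24 h and 35 at 1 h. Enriched bins were unevenly spread: at 1 h Cacna1h had 50 of 117 bins tested (42.7%), Cacna1d 157 of 588 and Cacna1c 180 of 1238, while Trpm7 had 0 of 115, with a mean of 0.053 RPKM in captured samples and 0.199 RPKM in input.

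At 24 h 21 of the 199 bins (10.6%) had more captured DNA in threat than in place samples and 0 had less (limma on log2(RPKM + 0.25), adjusted p under 0.05), beside 7.7% of all bins. They lay in 12 members, among them Cacna1c and Trpc4 with 3 bins each, Cacna1d, Scn8a and Trpm4 with 2 each, and 1 each in Cacna1e, Cacna1i, Cacng7, Scn3a, Trpm2 and Trpm3. The whole distribution was shifted, with a median log2 difference of 0.29 over the members' bins and 0.28 over all bins. After TMM scaling of the recovered reads in edgeR the medians were 0.02 and 0.0004, and 0 member bins passed, with 13 at an unadjusted p under 0.05 by edgeR and 74 by limma (37.1% of all bins by limma). With limma kept and the levels divided by the TMM factors, an alternative chosen after seeing the data, the medians were 0.02 and 0.0037, and 0 member bins passed, with 13 at an unadjusted p under 0.05. The 21 bins are not shown to differ beyond a shift common to the libraries.

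In Cacng7 (chr1:63375501-63376000) captured DNA amounted to 1.35, 1.37 and 1.56 RPKM in threat 24 h samples, against 0.699, 0.885, 0.840 and 0.720 in place 24 h samples (0.70, SE 0.16, limma adjusted p 0.030), with 0.846, 0.954 and 0.904 in naive 24 h samples. A bin of Scn8a (chr7:140483501-140484000) had 1.79, 1.43 and 1.961 RPKM in threat 24 h samples, against 1.31, 0.856, 0.868 and 0.909 in place 24 h samples (0.68, SE 0.16, limma adjusted p 0.030). The bin after it (chr7:140484001-140484500) had 1.76, 1.28 and 1.39 RPKM in threat 24 h samples, against 1.15, 0.708, 0.728 and 0.606 in place 24 h samples (0.74, SE 0.19, limma adjusted p 0.031). In these 3 bins every threat sample exceeded every place sample. The bins were chosen for their low p in this comparison, which favours such separation. No share of separated bins over all bins was computed.

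In Trpc4 (chr2:163281001-163281500) captured DNA amounted to 1.38, 1.4 and 1.42 RPKM in threat 24 h samples, against 0.895, 0.738, 0.840 and 0.909 in place 24 h samples (0.59, SE 0.16, limma adjusted p 0.033). In Trpm4 (chr1:102360501-102361000) it amounted to 2.07, 1.84 and 1.76 RPKM in threat 24 h samples, against 1.43, 1.09, 0.840 and 1.36 in place 24 h samples (0.60, SE 0.16, limma adjusted p 0.033). The samples were again separated, in bins chosen in the same way. The count of 21 bins rested on single samples: it was 40 without place replicate 1, 3 without place replicate 2, 24 without threat replicate 3, and 0 without place replicate 3, place replicate 4, threat replicate 1 or threat replicate 2.

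In the other 5 MBD comparisons 0 member bins were called by limma and 0 by edgeR. Against naive 24 h samples, threat 24 h had 60 of 199 bins at an unadjusted p under 0.05 by limma and 14 by edgeR. Of all bins limma called 0.0105% and gave 23.1% an unadjusted p under 0.05. Place 24 h against naive 24 h had 5 such bins by limma and 11 by edgeR, beside 0.0082% of all bins called and 4.28% under an unadjusted 0.05 by limma. The lowest p for threat lay in Cacna1d (chr16:6314501-6315000, 1.65, 1.52 and 1.42 RPKM in threat 24 h, against 0.928, 0.541 and 0.980 in naive 24 h samples, 0.77, adjusted p 0.083) and in Cacna2d3 (chr16:5369501-5370000, 0.72, adjusted p 0.083). For place they lay in the same Cacna1d bin (1.68, 1.54, 1.01 and 1.06 RPKM in place 24 h samples, 0.56, adjusted p 1.0) and in Trpc2 (chr1:173379501-173380000, -0.50). None of these passed.

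At 1 h, threat against naive had 181 of 1195 bins at an unadjusted p under 0.05 by limma and 96 by edgeR, beside 0.016% of all bins called and 15.4% under an unadjusted 0.05 by limma. Place against naive had 43 such bins by limma and 54 by edgeR (0.00285% and 3.34% of all bins), and threat against place had 97 and 71 (0.0174% and 9.98%). The lowest p lay in 2 neighbouring bins of Cacna2d3. The bin chr16:5399501-5400000 had 5.13, 3.33 and 1.57 RPKM in threat 1 h samples, against 2.54, 1.08 and 0.803 in naive 1 h samples (1.06, limma adjusted p 0.098), and the bin chr16:5399001-5399500 had 13.1, 10.4 and 4.49 RPKM in threat 1 h samples, against 5.64, 4.11 and 3.77 in naive 1 h samples (0.90, limma adjusted p 0.10). Threat replicate 3 lay within the naive range in both bins, and without it 26 member bins passed, 25 of them higher in threat. The share of all bins called without it is not given here. Over the members' bins the median log2 difference was 0.18, and 0.24 without that sample. With all samples and levels divided by TMM factors (chosen after seeing the data) it was 0.012. The 26 bins were not tested with TMM scaling, so they are not shown to differ beyond a shift common to the libraries.

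For place against naive at 1 h the lowest p lay in Scn2a1 (chr3:58392001-58392500 and chr3:58392501-58393000, adjusted p 1.0 for each). For threat against place they lay in Cacnb4 (chr3:43132501-43133000, 0.68, adjusted p 0.42), with 1.61, 1.48 and 1.29 RPKM in threat 1 h samples, against 0.634, 0.736, 0.827 and 1.12 in place 1 h samples, and in Cacna1d (chr16:6198001-6198500, -0.65, adjusted p 0.43). The Cacnb4 samples did not overlap, in a bin chosen for its low p, and the difference did not pass.

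At the gene starts captured DNA was mostly below input. The ratio of captured to input level in the start bin, (captured RPKM + 0.25) / (input RPKM + 0.25), had a median of 0.753 over the 44 members at 24 h, against 0.663 over all 13153 genes, and of 0.570 at 1 h, against 0.481 over all genes. It was below 1 for 32 members at 24 h (72.7%, against 80.7% of all genes) and for 34 at 1 h (77.3%, against 83.4%). The start bin met the enrichment filter for 0 members at 24 h (against 1.21% of all genes) and for 6 at 1 h (13.6%, against 6.78%).

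The highest ratios of captured to input level at 1 h were those of 4 TARP genes. Cacng7 had a mean of 2.55 RPKM in captured samples, against 0.293 in input (ratio 5.15), Cacng8 1.21, against 0.110 (4.06), Cacng5 2.70, against 0.661 (3.24), and Cacng2 1.34, against 0.413 (2.40). Trpc4 (2.28) and Cacnb2 (2.21) followed, and Cacna1b had the lowest ratio (0.249). At 24 h the highest ratios were those of Trpc4 (2.40), Cacng8 (1.75), Cacng2 (1.65), Cacng7 (1.63) and Cacng5 (1.49), all of which are named for 1 h too.

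The promoters printed above fall on both sides of this range. Cacng2 and Cacng5, with 7 and 2 CpG, had starts with captured DNA above input, while Cacnb3, with 44 CpG, had a ratio of 0.606 at 1 h and Trpm7, with 38 CpG, of 1.06. Scn2b, with 2 CpG, had a ratio of 0.753 at 1 h. Captured and input levels at 1 h were 0.0096 and 0.179 RPKM for Cacnb3, 0.028 and 0.013 for Trpm7, and 0 and 0.082 for Scn2b. All lie below the added 0.25 RPKM, so these ratios are set largely by that addition. Capture itself requires methylated CpG, and the rn5 starts of the deposited table and the GRCr8 starts of the printed promoters were not aligned with each other. Cacnb3 is an example, lying on chromosome X in the deposited rn5 positions and on chromosome 7 in GRCr8.

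**Figure D5:**
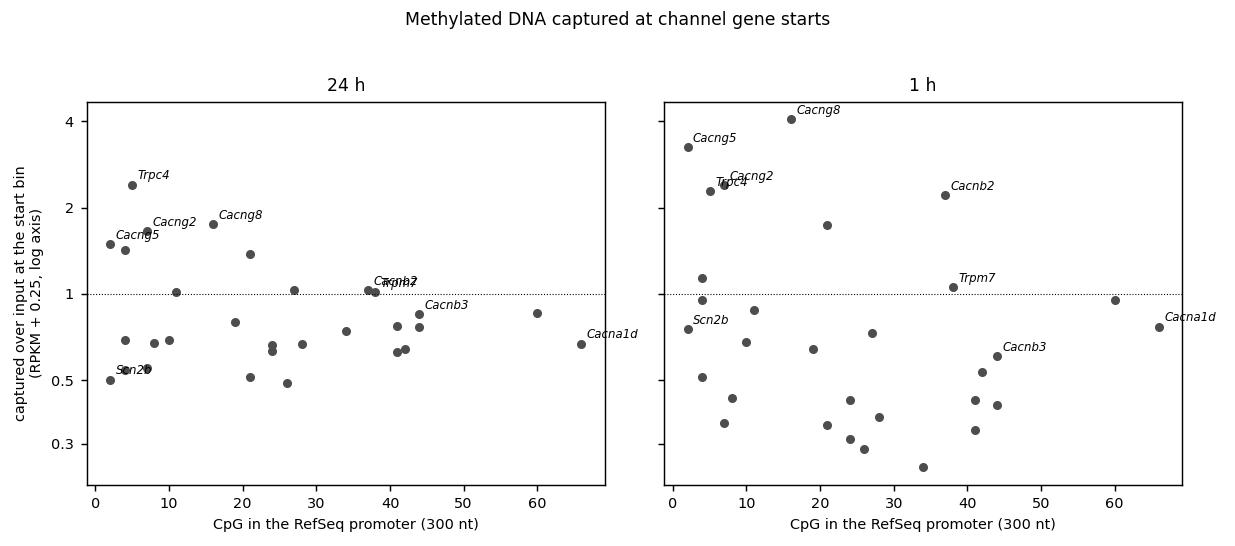
Ratio of captured to input level at the rn5 gene start, on a log axis, against the number of CpG in the RefSeq GRCr8 promoter for the 30 members with one, at 24 h and at 1 h. Most members lie below 1, and Cacng8, Cacng5, Cacng2 and Trpc4 lie above it at each time.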

How the data were processed

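PolyA-selected, directional RNA libraries and MBD captures (MethylMiner, per the labels' protocols) were sequenced. The authors deposited RNA values in FPKM per gene and MBD signal in RPKM per 500-nt bin with rn5 positions. TopHat 1.4.0, Bowtie, DESeq2 and edgeR stand in the submitters' processing notes without roles, beside the builds mm10 and rn5. The RNA table is titled GRCm38, but its positions lie in rn5. FPKM holds no counts, so RNA was fitted with limma 3.58.1 (R 4.3.3, trend) on log2(FPKM + 1), which understates changes of low genes, with all 34 libraries in 1 fit (29 residual degrees of freedom), genes at 1 FPKM or more in 5 libraries, and Benjamini-Hochberg adjustment over 13153 genes. The deposited MBD signal gave whole reads within 0.1 for 100% of values, which edgeR 4.0.16 tested as an alternative. The main MBD test was limma on log2(RPKM + 0.25), with 1 fit per time; 21 shorter bins were left out. Precision is that of the spread between samples, and MBD depth is given with those results.

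On simulated data the RNA fit of threat 24 h against naive, over 13153 genes, recovered 95% of changes of 0.5 log2 units and 99% of those of 1. The MBD fit recovered 28% of changes of 1 log2 unit and 95% of 2 for threat against naive at 1 h. Changes were planted only in genes and bins above a minimum level, with noise drawn independently for each gene or bin. For MBD the spread between samples was set beforehand and not taken from these samples. These shares describe the simulated data and may not hold for these samples or for members of low level.

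Samples were grouped by their titles and characteristics. Members, lists, marker sets and naive splits were chosen with earlier results of these data known. Some members are not reported here. Among the others, values were printed for the 3 members with the lowest p of each RNA comparison, for called members up to the 6 with the lowest p (the rest in the threat comparison were added), for the most abundant member of each subfamily, and for up to 5 called bins or the 2 bins with the lowest p. Correlations used 100000 permutations within groups. Alternatives were pseudocount, filter, scaling, samples in the fit, replicate block, each library left out, and the naive blocks.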

Additional observations from a re-analysis of the deposited data

Results flagged for a closer look

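In 23 of 220 groups of values (1 member in 1 group of 5 to 9 libraries) a single library lay far from the others. The limit used would flag about 1 group in 20 if values were independent and normally distributed. The flags here share libraries and are not independent, and genes outside the members were not examined in this way. The count is therefore not shown to exceed that of other genes. Place 1 h replicate 3, the library with the highest CA2 and CA3 markers, was the highest of 6 for 9 members: Cacna1a (21.9 FPKM), Cacna1b (10), Cacna1c (6.22), Cacna1e (15.1), Cacnb2 (15.0), Cacng5 (5.21), Scn2a1 (30.4), Scn8a (30.4) and Trpc5 (6.62). Threat 1 h replicate 3, the library with the highest dentate granule markers, was the highest of 8 for Cacna1d (5.54 FPKM), Cacna2d2 (7.10), Scn3a (7.06) and Trpc6 (7.67), and the lowest for Trpm2 (3.13). Place 24 h replicate 4 was the lowest of 5 for Cacna1c (1.58 FPKM), Cacng8 (27.8) and Scn2b (51.0). The part of dissection in these values was not tested.

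The other single libraries apart were threat 24 h replicate 4 for Cacna1a (6.73 FPKM, lowest of 6), threat 24 h replicate 3 for Cacna2d3 (43.0, highest of 6), place 24 h replicate 1 for Cacng3 (33.0, highest of 5), naive replicate 5 for Cacng7 (54.3, highest of 9) and naive replicate 4 for Trpc1 (5.33, lowest of 9). Among the genes below the filter, which entered no comparison, Trpv4 reached 2.15 FPKM in threat 1 h replicate 4, above its highest naive library at 0.145.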

How the results depend on the processing

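No difference of a called member changed sign. Of the values of single called members under alternatives, 377 kept their side of the threshold and 71 lost it. The number of members called moved with the naive libraries. Shares of all genes called are not given beside the member counts under alternatives, so these counts cannot be read as particular to the members. With naive replicates 5 to 9 alone it was 0 for threat 24 h, 8 for threat 1 h and 1 for place 1 h against naive, and with replicates 1 to 4 alone 14 for threat 24 h and 8 for place 24 h. With only the compared groups in the fit, threat 24 h against naive gave 1. Median-ratio scaling moved the split of all called genes in threat 24 h against naive to 402 higher and 858 lower, beside 568 and 759 in the main fit, in place 24 h against naive to 122 and 546 (196 and 468), and in threat 1 h against naive to 67 and 34 (106 and 16). Leaving out 1 library at a time gave 1 to 8 members for threat 24 h against naive (8 without naive replicate 6, 7 without threat 24 h replicate 3, and 1 without naive replicate 3 or 4 or threat 24 h replicate 5 or 6), 0 to 3 for place 24 h against naive, 0 to 2 for threat 1 h against naive, 12 to 15 for threat 24 h against threat 1 h, and 2 to 5 for place 24 h against place 1 h (5 without place 1 h replicate 6). Without place 1 h replicate 3 and threat 1 h replicates 3, 4 and 7, chosen after seeing the data, these last 2 counts were 13 and 4.

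Same-numbered RNA libraries did not deviate together throughout: between threat 24 h and threat 1 h, 3 of 6 pairs correlated above 0.1 (-0.416 to 0.252), and over the pairs of the trained groups 10 of 33 (-0.497 to 0.587). Pairs with naive libraries ran between -0.434 and 0.390, and in no comparison did all pairs exceed 0.1, so the numbers were not taken as pairs. With the number as a replicate block 9 members were called between threat 24 h and threat 1 h, 6 for threat 24 h and 9 for place 24 h against naive, and 2 bins for threat 1 h against naive, 3 for threat 24 h against naive and 41 for threat 24 h against place 24 h.

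For MBD, the 21 bins of threat 24 h against place 24 h became 0 in edgeR and 0 in limma after division by TMM factors (chosen after seeing the data), 4 with a filter of 0.5 RPKM and 4 with one of 2 RPKM, and 0 to 40 without single samples. Threat 1 h against naive gave 2 bins with the filter of 2 RPKM and 0 to 26 without single samples, and threat 24 h against naive gave 0 to 3. Threat 1 h against place 1 h gave 1 bin, lower in threat, with the filter of 0.5 RPKM. Without single samples it gave 0 to 1, and the 1 bin, called without threat 1 h replicate 3, was higher in threat. The median ratio at gene starts at 24 h was 0.700 over 3 bins, beside 0.753. Shares of all bins called under these alternatives are not given here. The cause of these changes was not tested. In simulated data, whose spread between samples was set beforehand, MBD changes of 1 log2 unit were mostly missed (28% recovered for threat against naive at 1 h).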
